A study of Mus musculus with 12 samples.

Results

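The genes described here are the chemokines and the chemokine receptors of the mouse heart, taken as every row of the deposited gene tables whose symbol begins with *Ccl*, *Cxcl*, *Xcl*, *Cx3cl*, *Ccr*, *Cxcr*, *Xcr*, *Cx3cr* or *Ackr* and a digit. This rule found 70 of 53801 rows, with 65 different symbols, and it used no measured value. Of these rows, 47 were ligands, 19 were G protein-coupled receptors and 4 were atypical receptors. RNA was sequenced from whole hearts of adult male C57BL/6N mice, for which the labels name no altered allele, in 3 groups of 4 hearts each. Sham hearts came from sham-operated mice, and the other groups were taken 1 day (day 1 AMI) and 7 days (day 7 AMI) after acute myocardial infarction (AMI), produced by ligation of the left anterior descending coronary artery. The label protocol lists day 0 among its time points, and it does not tie that day to the sham hearts in words. Each library came from the whole organ, so infarct, border and remote muscle were mixed, and infarct size was not used here.

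Chemokines are small secreted or membrane-bound proteins that guide leukocytes along a concentration gradient. They act on seven-transmembrane receptors that couple to Gi proteins, and most ligands are named by the spacing of their first cysteines as CC, CXC, XC or CX3C. Atypical receptors bind chemokines without this G protein signal and mostly scavenge or present them. After infarction of the heart, CXC ligands of CXCR2 are known for drawing neutrophils into the injured muscle, and CC ligands of CCR2 for drawing monocytes.

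Of the 70 rows, 13 had no count in any library and 57 had a count in at least 1. The silent rows were those of *Ccl20*, *Ccl26*, *Ccl27*, *Ccl27b*, *Ccl21a*, *Ccl21b*, *Ccl21c*, *Ccl19-ps3* and a second identifier of *Ccl19*. Several of these genes lie in near-identical copies, so a count of 0 there does not show that the gene was silent. Expression is given as CPM, the reads on a gene relative to its library's total after TMM scaling, and as TPM, which also divides by transcript length. The libraries held between 23204551 and 32166517 counts, and their TMM factors lay between 0.781 and 0.917 (sham), 1.01 and 1.06 (day 1 AMI), and 1.10 and 1.17 (day 7 AMI). The floor of a library was set at 3 reads, worth 0.0895 to 0.157 CPM, and allows for counting error only. The edgeR filter on low counts kept 42 members, of which 25 were ligands, 13 receptors and 4 atypical receptors. A gene was called when its fold change (FC) was 2 or greater and its Benjamini-Hochberg false discovery rate (FDR) over all 15306 genes tested was below 0.05. All adjusted p-values below come from edgeR's quasi-likelihood test in this fit, and log2 FCs are followed by their standard errors (SE).

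The hearts themselves differed within the sham group. Sham hearts 1 and 2 had summed neutrophil markers (10 genes, of which 9 were tested) of 32.4 and 59.1 CPM, against 3.98 and 2.82 CPM in sham hearts 3 and 4. Sham heart 2 also held 4462 CPM of erythroid markers, against a highest sum of 1181 CPM in the other sham hearts. These values are set beside the members they move with, and the member counts without sham hearts 1 and 2, an alternative chosen after seeing the data, are given in the closing section. The defining cardiomyocyte markers were present in every heart. Over 6 genes they summed to between 59320 and 69860 CPM in sham, 38050 and 48250 CPM on day 1, and 32350 and 37620 CPM on day 7. Of these genes, 4 were called lower on day 7 than in sham, and none on day 1. Their part in the member changes was not tested. In whole-heart RNA, fewer cells of a type and less RNA per cell cannot be told apart.

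The sequences shown here are the bases just upstream of the transcription starts of *Cxcl1*, *Cxcl2* and *Cxcl3*, CXC ligands that rose together on day 1, and of *Cxcl9* and *Cxcl10*, which were highest on day 7. They come from RefSeq on GRCm38.p6, written 5′ to 3′ on the strand of the gene, and were cut where GENCODE M21 places an exon of the gene. Capitals mark matches, on either strand, to a kB-like motif (GGGNNTTTC) and to an ISRE-like motif (TTTCNNTTT).
Cxcl1, chr5:90890995-90891240, plus strand: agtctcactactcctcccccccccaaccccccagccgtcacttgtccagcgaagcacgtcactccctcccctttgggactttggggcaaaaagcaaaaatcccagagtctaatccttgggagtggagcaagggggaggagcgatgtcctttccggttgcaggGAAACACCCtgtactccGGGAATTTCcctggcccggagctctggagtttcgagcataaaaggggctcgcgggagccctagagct
Cxcl2, chr5:90903649-90903870, plus strand: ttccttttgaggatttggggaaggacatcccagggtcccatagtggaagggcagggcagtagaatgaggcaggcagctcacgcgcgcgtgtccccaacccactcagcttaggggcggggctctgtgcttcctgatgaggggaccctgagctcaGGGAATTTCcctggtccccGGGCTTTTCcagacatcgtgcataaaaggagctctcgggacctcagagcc
Cxcl3, chr5:90785851-90786100, plus strand: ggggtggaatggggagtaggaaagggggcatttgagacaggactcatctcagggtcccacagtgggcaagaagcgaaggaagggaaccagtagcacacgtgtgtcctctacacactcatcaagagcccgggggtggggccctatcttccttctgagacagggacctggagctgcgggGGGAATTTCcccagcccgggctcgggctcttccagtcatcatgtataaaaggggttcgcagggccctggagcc
Cxcl9, chr5:92328080-92328329, minus strand: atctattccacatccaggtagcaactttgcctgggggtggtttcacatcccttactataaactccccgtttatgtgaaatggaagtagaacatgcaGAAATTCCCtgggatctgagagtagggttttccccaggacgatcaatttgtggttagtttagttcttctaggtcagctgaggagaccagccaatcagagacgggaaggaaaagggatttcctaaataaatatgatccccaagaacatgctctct
Cxcl10, chr5:92348890-92349139, minus strand: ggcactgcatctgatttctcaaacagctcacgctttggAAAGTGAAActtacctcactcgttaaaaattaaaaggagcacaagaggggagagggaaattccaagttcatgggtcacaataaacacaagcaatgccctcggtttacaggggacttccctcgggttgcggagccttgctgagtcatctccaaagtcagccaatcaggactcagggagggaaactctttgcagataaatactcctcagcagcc

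*Cxcl1* and *Cxcl2* each held 2 kB-like matches and *Cxcl3* held 1, all within 100 bases of the RefSeq start. *Cxcl9* held 1 such match further upstream, and *Cxcl10* held 1 ISRE-like match and no kB-like match in this window. Across 32851 promoter windows of 250 bases in the RefSeq table, 3.72% held the kB-like letters and 9.37% the ISRE-like letters. Windows were given for 30 of the 42 tested members (33 windows), of which 24.2% held a kB-like match and 9.09% an ISRE-like match. The other tested members with a kB-like match were *Ccl9*, *Cxcr2*, *Cxcr3* and *Cxcr4*. The *Cxcr3* match lay past the point where GENCODE M21 starts that gene, so by that annotation it was not upstream. *Cxcl1*, *Cxcl2* and *Cxcl3* shared 1 identical match and were counted as separate windows. For *Cxcl5* and *Ccl2* no window was given. A match describes these letters and is not evidence that a factor binds there. Other forms of these motifs were not searched, so a window without a match, such as that of *Cxcl10* for the kB-like letters, may still hold a kB site.

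Between sham and day 1 AMI, 21 of the 42 tested members were higher (50%) and 1 was lower (2.38%), whereas 7.79% of all genes tested were higher and 2.98% lower. Between sham and day 7 AMI, 22 members were higher (52.4%) and 2 were lower (4.76%), against 15.3% and 5.88% of all genes. From day 1 to day 7, 9 members were higher (21.4%) and 14 lower (33.3%), against 8.55% and 2.69% of all genes. The values of the groups did not overlap for 23, 23 and 26 members (54.8%, 54.8% and 61.9%), against 36.7%, 53% and 44.5% of all genes, so that on day 7 against sham the members were near the background by this measure. The median log2 FC of the tested members was 1.46, 1.27 and -0.04 in these 3 comparisons, and that of all genes tested was -0.01, 0.03 and 0.02. The comparisons share hearts, so they are not independent of one another.

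Of the 42 tested members, 32 were called in at least 1 comparison and 10 in none. Among ligands, 15 of 25 were higher on day 1 and 13 on day 7, with 2 lower on day 7. Among receptors, 6 of 13 were higher on day 1 and 8 on day 7, and no receptor was called lower than sham. Of the 4 atypical receptors, *Ackr4* alone was called, lower on day 1 and higher on day 7. The order of the calls fell into a few patterns. The largest were 7 members that were higher on day 1 and were then lower again by day 7 with no call against sham (*Cxcl1*, *Cxcl2*, *Cxcl3*, *Cxcr2*, *Ccl6*, *Ccl7*, *Ccl9*), and 7 that were higher on both days with no call between the days (*Ccl3*, *Ccl4*, *Ccl12*, *Ccl17*, *Ccl22* and *Ccr2* among them). Another 5 were called only when day 7 was compared with sham and with day 1 (*Cxcl9*, *Cxcl16*, *Cx3cr1*, *Cxcr4*, *Ccr7*), and 3 were higher on day 1 and higher still on day 7 (*Cxcl10*, *Ccl5*, *Cxcr3*).

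**Figure D1:**
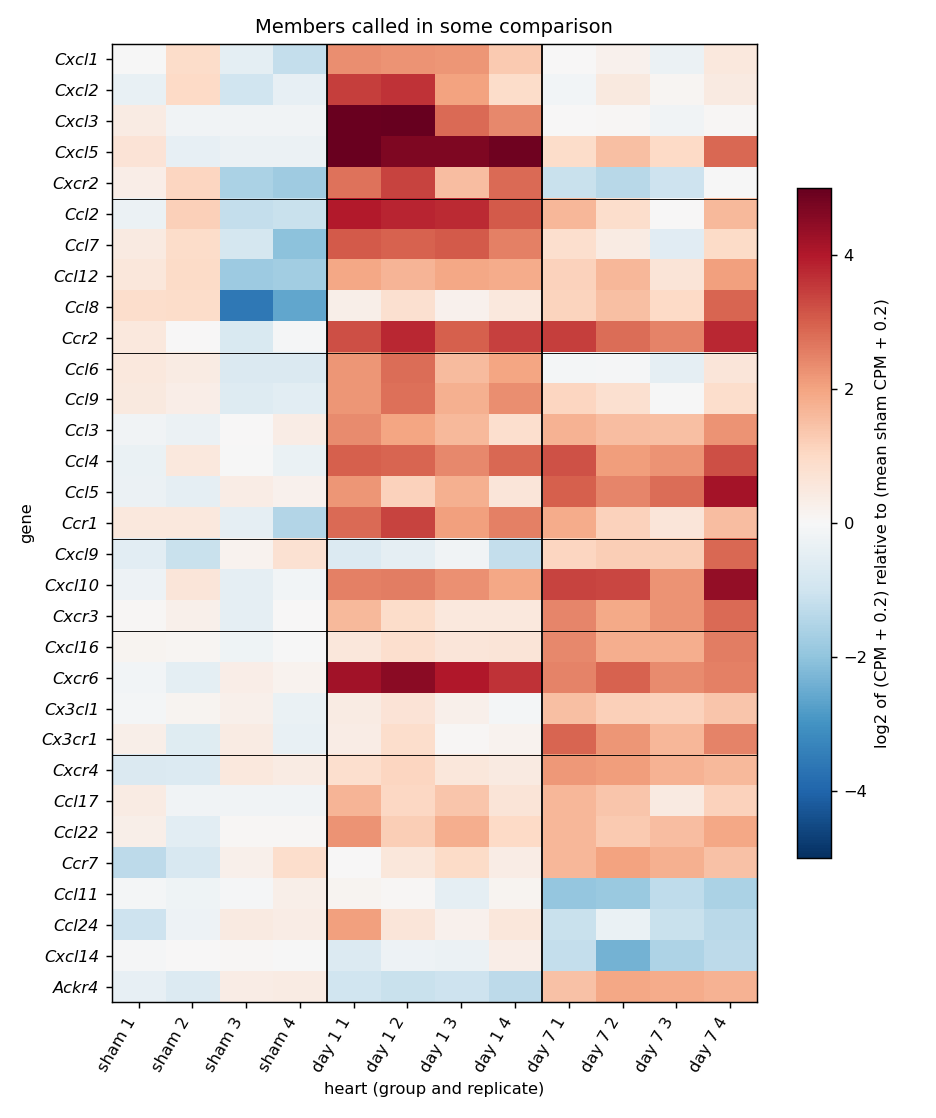
Heatmap of 31 members called in at least 1 comparison (vertical axis, grouped by role) in each of the 12 hearts (horizontal axis), coloured by log2 of (CPM + 0.2) relative to (mean sham CPM + 0.2), with colours limited to 5 in either direction. The 4 CXCR2 ligands at the top are red on day 1 and, but for *Cxcl5*, near white on day 7, *Cxcl9*, *Cxcl16* and *Cx3cr1* are reddest on day 7, and *Ccl8* is blue in sham hearts 3 and 4.

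The 4 tested members that are ligands of CXCR2, the main chemokine receptor of neutrophils, each rose by day 1. *Ppbp* (CXCL7), a platelet ligand of CXCR2 whose symbol falls outside the rule, was called in no comparison, with group means of 4.09, 3.42 and 1.55 CPM and a day 1 log2 FC of -0.27 (SE 0.58, adjusted p = 0.741). The genes of the 4 members lie together on chromosome 5 (GRCm38, 90759360 to 90905938) with *Cxcl15*, which did not pass the filter. *Cxcl5*, made largely by stromal and epithelial cells, was measured at 0.678, 0.205, 0.243 and 0.239 CPM in sham hearts 1 to 4, at 16.4, 13.7, 13.6 and 15.6 CPM in day 1 hearts, and at 0.832, 1.35, 0.885 and 3.81 CPM in day 7 hearts. The 3 groups were apart, with day 1 highest in every heart. It was 44.1-fold higher on day 1 than in sham (log2 FC 5.46, SE 0.49, adjusted p = 8.16e-06), was still higher on day 7 (log2 FC 2.36, SE 0.54, adjusted p = 0.00172), and fell by 3.10 on the log2 scale from day 1 to day 7 (SE 0.39, adjusted p = 2.48e-05). Without day 7 heart 4, the day 7 difference from sham was 1.60 and the change from day 1 was -3.86, both still called.

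*Cxcl1*, a classical neutrophil attractant of activated stromal cells and macrophages, measured 1.41, 2.88, 0.970 and 0.526 CPM in sham, 8.03, 7.64, 7.36 and 3.88 CPM on day 1, and 1.48, 1.70, 1.14 and 2.18 CPM on day 7. Every day 1 heart lay above every other heart, and sham and day 7 overlapped. The rise on day 1 was 4.57-fold (log2 FC 2.19, SE 0.39, adjusted p = 0.000584) and became 2.80 on the log2 scale without sham heart 2, and on day 7 the log2 difference from sham was 0.15 (SE 0.41, adjusted p = 0.773). *Cxcl2*, its close relative from myeloid cells, measured 0.104, 0.575, 0 and 0.0956 CPM in sham, 4.09, 4.60, 1.41 and 0.536 CPM on day 1, and 0.154, 0.348, 0.221 and 0.340 CPM on day 7. Here day 1 heart 4 lay below sham heart 2, so these groups overlapped, and day 1 hearts 1 and 2 were well above hearts 3 and 4. The day 1 difference from sham was 3.65 on the log2 scale (SE 0.77, adjusted p = 0.00189), or 5.23 without sham heart 2, and the value fell by 3.31 by day 7 (SE 0.71, adjusted p = 0.00169).

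*Cxcl3* was almost confined to day 1, with 541 reads in the 4 day 1 libraries against 2 in sham and 3 in day 7. In CPM it measured 6.81, 8.59, 1.41 and 1.01 on day 1, and at most 0.104 in any other heart, which is under the floor of that library. The ratio of day 1 to sham was 189, with an exact 95% counting interval from 52.0 to 1562, and that of day 1 to day 7 was 170 (57.8 to 826). These intervals cover counting error only. The adjusted p-values were 0.000123 and 4.21e-05. Both sham reads were in sham heart 1, and the fitted day 1 log2 FC of 7.30 became 9.94 without it. No sham read was left in that fit, so 9.94 does not measure the size of the change. Day 1 hearts 1 and 2 were again above hearts 3 and 4, as for *Cxcl2*. Of the 75-base stretches of the annotated exons, 4.57% of those of *Cxcl2* also occur in *Cxcl3* and 2.78% of those of *Cxcl3* in *Cxcl2*. The annotated exons of both genes cover their whole spans (2068 and 3498 bases), so these shares may understate the overlap of the spliced RNA. How many reads could be split between the genes was not measured.

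*Cxcr2* itself measured 1.09, 1.97, 0.145 and 0.0956 CPM in sham, 6.46, 10.4, 2.81 and 7.19 CPM on day 1, and 0.277, 0.193, 0.295 and 0.816 CPM on day 7. Day 1 was above both other groups in every heart. The sham hearts were spread over more than 1 order of magnitude. The day 1 difference of 2.98 on the log2 scale became 3.94 without sham heart 2, and the fall of 4.06 to day 7 became 4.69 without day 7 heart 4, with both calls kept. *Cxcr1*, the other neutrophil receptor, did not pass the filter, and its highest value was 0.209 CPM in day 1 heart 2. The summed neutrophil markers ran from 2.82 to 59.1 CPM in sham, from 52.1 to 183 CPM on day 1 and from 11.4 to 41.9 CPM on day 7, with none of the 10 genes at 0 in a group, and 5 of the 9 tested were called higher on day 1 and 6 lower from day 1 to day 7. Day 1 heart 2 was highest and day 1 heart 3 lowest in both *Cxcr2* and the marker sum, and also in the summed monocyte and macrophage markers. *Cxcl5* differed little among the day 1 hearts. The part of these markers in the *Cxcr2* result was not tested.

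**Figure D2:**
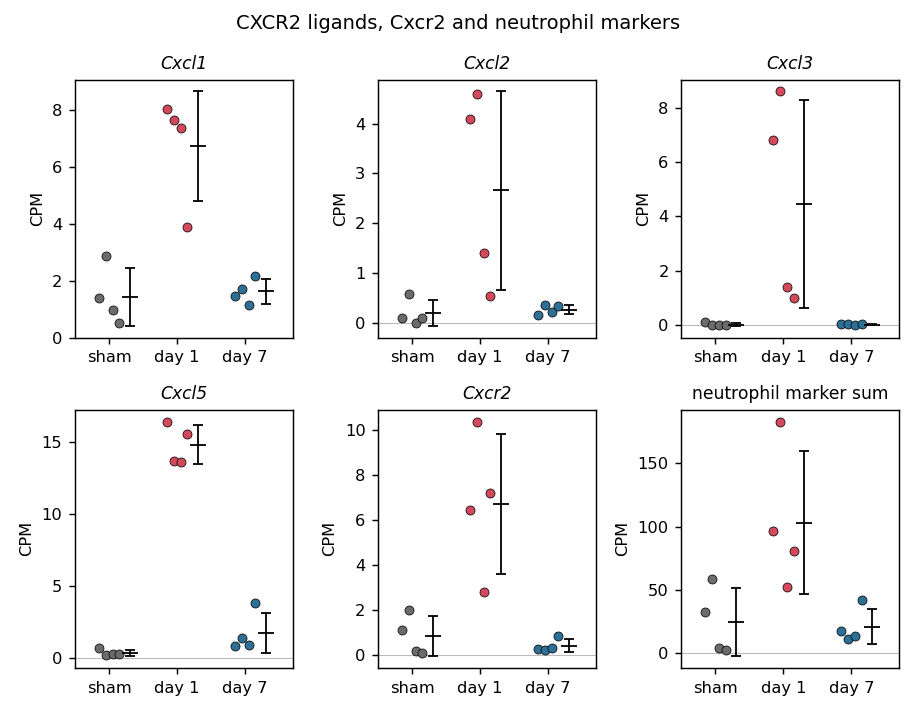
Normalized expression in CPM (vertical axes, linear) of 4 CXCR2 ligands, *Cxcr2* and the sum of 10 neutrophil markers in the hearts of the 3 groups (horizontal axes). Points are hearts in the order of their replicate number, and bars show the mean and SD of 4 hearts. The day 1 mean is highest in each panel, but sham and day 1 hearts overlap for *Cxcl2* and for the marker sum. *Cxcl2* and *Cxcl3* are split between a high and a low pair of day 1 hearts.

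The ligands of CCR2, which monocytes use to leave the bone marrow and enter tissue, also rose on day 1. *Ccl2* measured 1.93, 5.71, 0.922 and 1.00 CPM in sham, 39.7, 36.0, 34.1 and 21.3 CPM on day 1, and 7.89, 4.56, 2.44 and 7.69 CPM on day 7. Every day 1 heart was above every other heart, and sham heart 2 lay within the day 7 range. The rise was 13.3-fold on day 1 (log2 FC 3.73, SE 0.48, adjusted p = 7.65e-05) and 4.68 on the log2 scale without sham heart 2. On day 7 *Ccl2* was called 2.31-fold above sham (log2 FC 1.21, SE 0.49, adjusted p = 0.0454), but this call rested close to the threshold. It was lost in 9 of the 12 fits that left out a heart, with log2 FCs from 0.94 to 1.29 in those 9 and adjusted p-values up to 0.121, and with DESeq2 (adjusted p = 0.0833). Without sham heart 2 it was 2.15 and was kept.

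*Ccl7*, a relative of *Ccl2* that acts on CCR2 and also on other CC receptors, measured 5.53, 7.76, 2.09 and 0.813 CPM in sham, 35.7, 32.4, 35.7 and 24.2 CPM on day 1, and 7.46, 5.41, 2.69 and 8.10 CPM on day 7. Day 1 was again apart from both other groups, which overlapped. It rose 7.82-fold on day 1 (log2 FC 2.97, SE 0.46, adjusted p = 0.000244) and fell by 2.43 by day 7 (SE 0.44, adjusted p = 0.000474). *Ccl12*, the mouse monocyte attractant MCP-5, measured 2.87, 3.82, 0.388 and 0.430 CPM in sham, 7.69, 6.47, 7.82 and 7.38 CPM on day 1, and 4.44, 6.30, 3.03 and 8.47 CPM on day 7. Sham heart 2 lay within the day 7 range, and day 1 was above every sham heart. Unlike that of *Ccl2* and *Ccl7*, its change between the days was not called (-0.40, SE 0.47, adjusted p = 0.503). The log2 FC was 1.95 on day 1 (SE 0.51, adjusted p = 0.00783) and 1.55 on day 7 (SE 0.52, adjusted p = 0.0183), and it became 2.60 and 2.20 without sham heart 2, while the day 7 call was lost without day 7 heart 4 (1.27, adjusted p = 0.06).

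*Ccl8*, a CC ligand paired here with the untested *Ccr8*, measured 4.17, 4.31, 0 and 0.191 CPM in sham, 2.68, 3.94, 2.55 and 3.19 CPM on day 1, and 4.87, 6.49, 4.46 and 17.5 CPM on day 7. Sham hearts 1 and 2 were thus above every day 1 heart, and sham hearts 3 and 4 were near 0. It was called higher on day 7 (log2 FC 1.93, SE 0.74, adjusted p = 0.0368), but not without day 7 heart 4 (1.27, adjusted p = 0.165), sham heart 3 (1.52, adjusted p = 0.0571) or sham heart 4 (1.54, adjusted p = 0.0781), nor with DESeq2 (1.92, adjusted p = 0.148), and it was 2.54 without sham heart 2. Among the 5 genes of this stretch of chromosome 11, which lie in the order *Ccl2*, *Ccl7*, *Ccl11*, *Ccl12* and *Ccl8* between 82035571 and 82116799 (GRCm38, GENCODE M21), the day 1 log2 FCs were 3.73, 2.97, -0.02, 1.95 and 0.50.

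*Ccr2* measured 4.43, 3.08, 1.70 and 2.92 CPM in sham, 30.3, 43.8, 25.4 and 34.0 CPM on day 1, and 35.6, 22.5, 18 and 44.2 CPM on day 7. Both AMI groups were above every sham heart and overlapped each other. It was 11.0-fold higher on day 1 (log2 FC 3.46, SE 0.32, adjusted p = 8.16e-06) and 9.96-fold higher on day 7 (log2 FC 3.32, SE 0.32, adjusted p = 1.02e-06), and the change between the days was -0.15 (SE 0.26, adjusted p = 0.669). The receptor thus kept its day 1 level while *Ccl2* and *Ccl7* fell. The 10 monocyte and macrophage markers summed to between 249 and 352 CPM in sham, 437 and 631 CPM on day 1, and 660 and 951 CPM on day 7, with none at 0 in a group, and 4 were called higher on day 1 and 6 on day 7. The part of these markers in the *Ccr2* result was not tested.

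*Ccl6* and *Ccl9*, mouse CC ligands of CCR1 made by myeloid cells, moved alike. *Ccl6* measured 21.5, 19.9, 8.93 and 8.89 CPM in sham, 68.2, 104, 45 and 58.5 CPM on day 1, and 13.9, 14.4, 10.8 and 22.4 CPM on day 7. *Ccl9* measured 13.0, 11.6, 5.77 and 6.26 CPM in sham, 42.9, 63.3, 32 and 47.0 CPM on day 1, and 19.4, 16.0, 9.04 and 17.0 CPM on day 7. In both genes every day 1 heart was highest, with heart 2 at the top and heart 3 at the bottom, and sham hearts 1 and 2 were above hearts 3 and 4. The neutrophil marker sums and the monocyte and macrophage marker sums both had these extremes and this sham split. On day 1 the monocyte and macrophage sums were 464, 631, 437 and 552 CPM in hearts 1 to 4. The part of either marker list in the *Ccl6* and *Ccl9* results was not tested. *Ccl6* was 4.64-fold higher on day 1 (log2 FC 2.22, SE 0.33, adjusted p = 0.000175) and *Ccl9* 5.05-fold (log2 FC 2.34, SE 0.29, adjusted p = 6.17e-05). By day 7 *Ccl6* differed from sham by 0.05 on the log2 scale (SE 0.33, adjusted p = 0.902), and *Ccl9* by 0.75 (SE 0.29, adjusted p = 0.0379), which is under the FC minimum. Between the days, *Ccl6* fell by 2.16 (SE 0.32, adjusted p = 0.000115) and *Ccl9* fell by 1.59 (SE 0.28, adjusted p = 0.000368).

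Their receptor *Ccr1*, found on neutrophils, monocytes and macrophages, measured 2.87, 2.83, 1.36 and 0.574 CPM in sham, 14.7, 21.8, 8.47 and 12.0 CPM on day 1, and 7.43, 4.52, 3.03 and 5.95 CPM on day 7. The 3 groups did not overlap. It was 7.43-fold higher on day 1 (log2 FC 2.89, SE 0.42, adjusted p = 0.000144), 2.74-fold higher on day 7 (log2 FC 1.45, SE 0.42, adjusted p = 0.00814), and fell by 1.44 between the days (SE 0.37, adjusted p = 0.00589).

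*Ccl4* and *Ccl3*, CC ligands of activated macrophages, were called higher on both days. *Ccl4* (MIP-1β) measured 0, 0.164, 0.0485 and 0 CPM in sham, 1.84, 1.70, 1.15 and 1.67 CPM on day 1, and 2.10, 0.889, 0.996 and 2.14 CPM on day 7. Sham held 5 reads in all, and no sham heart came near an AMI heart. The ratio of summed reads was 26.9 on day 1, with an exact 95% counting interval from 11.3 to 83.9, and 26.8 on day 7 (11.3 to 83.6), and the adjusted p-values were 7.65e-05 and 1.72e-05. The fitted log2 FCs of 4.66 and 4.62 became 6.24 and 6.19 without sham heart 2. *Ccl3* (MIP-1α), its neighbour on chromosome 11, had group means of 0.143, 0.990 and 0.992 CPM, and was called higher on both days (log2 FC 2.76, SE 0.49, adjusted p = 0.000629 and log2 FC 2.77, SE 0.49, adjusted p = 0.000232). Between the days the log2 differences were 0.02 for *Ccl3* (SE 0.36) and -0.04 for *Ccl4* (SE 0.37).

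*Ccl5* (RANTES), a product of T cells, NK cells and macrophages that acts on CCR1 and other CC receptors, measured 0.209, 0.164, 0.437 and 0.383 CPM in sham, 2.10, 0.895, 1.51 and 0.568 CPM on day 1, and 3.76, 2.47, 3.21 and 8.67 CPM on day 7. It rose in steps, with no overlap between any groups. The log2 FC was 2.07 on day 1 (SE 0.56, adjusted p = 0.00951), 3.92 on day 7 (SE 0.53, adjusted p = 2.29e-05), and 1.85 between the days (SE 0.43, adjusted p = 0.00275). Without sham hearts 1 and 2 the day 1 call was lost (1.60, adjusted p = 0.0998). The 7 T cell markers summed to between 1.77 and 2.58 CPM in sham, 2.52 and 7.88 CPM on day 1, and 6.72 and 11.9 CPM on day 7, and the 5 NK cell markers to between 0.861 and 1.11, 1.20 and 2.72, and 2.16 and 5.07 CPM. The day 1 hearts came in the same order in *Ccl5* and in both marker sums, and day 7 heart 4 was highest in *Ccl5* and in both marker sums. Their part in the *Ccl5* result was not tested.

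**Figure D3:**
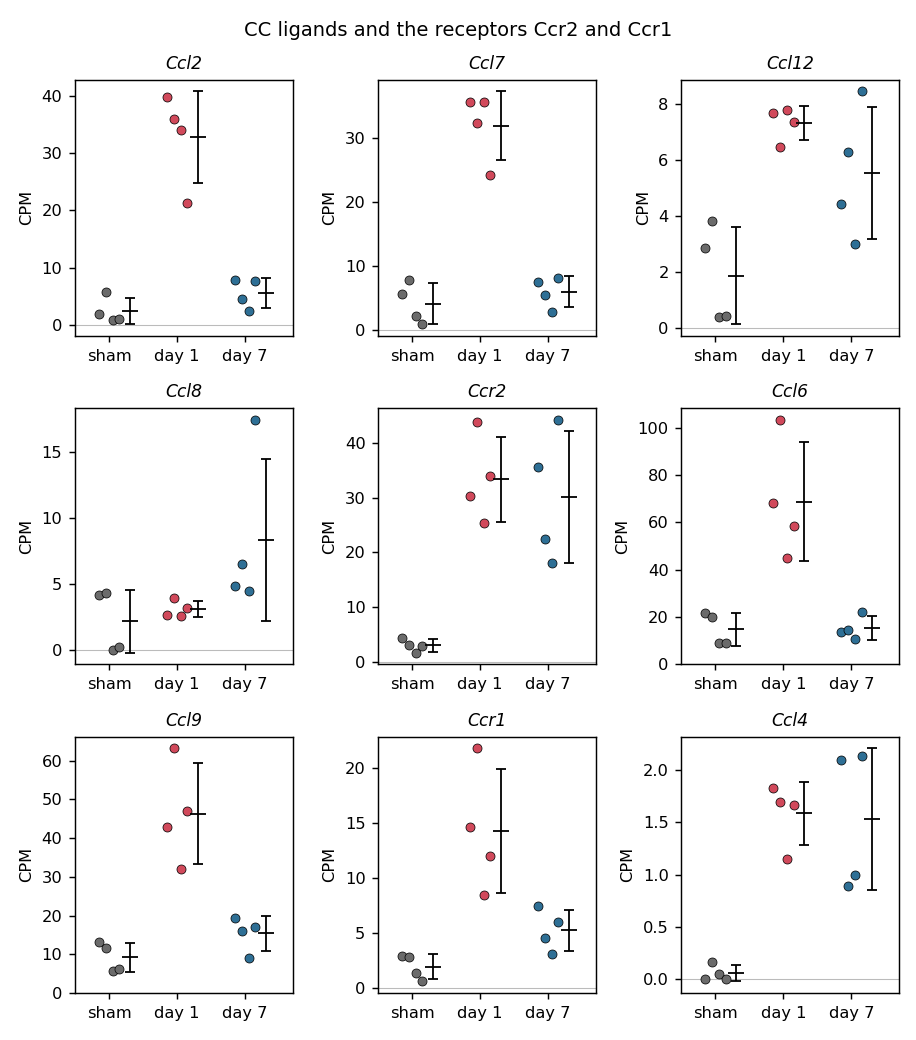
Normalized expression in CPM (vertical axes, linear) of 7 CC ligands and of *Ccr2* and *Ccr1* in the 3 groups (horizontal axes), with points for hearts and bars for the mean and SD of 4 hearts. *Ccl2*, *Ccl7*, *Ccl6*, *Ccl9* and *Ccr1* peak on day 1, while *Ccr2* and *Ccl4* are high on both days and the day 7 mean of *Ccl8* is lifted by heart 4 at 17.5 CPM.

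*Cxcl9* and *Cxcl10*, interferon-induced ligands of CXCR3, lie next to each other on chromosome 5 (GRCm38, 92321347 to 92348889) but rose at different times. *Cxcl9* measured 3.08, 1.97, 5.14 and 7.75 CPM in sham, 2.72, 3.22, 3.96 and 1.83 CPM on day 1, and 9.71, 10.7, 10.7 and 33.9 CPM on day 7. All day 7 hearts were above all others, and heart 4 stood far above the rest. The log2 FC against sham was -0.61 on day 1 (SE 0.47, adjusted p = 0.322) and 1.86 on day 7 (SE 0.45, adjusted p = 0.00261), and without day 7 heart 4 the day 7 value was 1.22. Against day 1 it was 2.47 (SE 0.46, adjusted p = 0.000595), or 1.82 without day 7 heart 4.

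*Cxcl10* measured 0.522, 1.11, 0.437 and 0.574 CPM in sham, 4.70, 4.92, 3.99 and 3.06 CPM on day 1, and 8.78, 8.46, 3.84 and 18.1 CPM on day 7. Both AMI groups were apart from sham, and day 7 heart 3 lay within the day 1 range. It was 6.15-fold above sham on day 1 (log2 FC 2.62, SE 0.45, adjusted p = 0.000485) and 14.5-fold on day 7 (log2 FC 3.86, SE 0.44, adjusted p = 5.37e-06). The further rise of 1.24 between the days (SE 0.36, adjusted p = 0.0114) was lost without day 7 heart 4 (0.76, adjusted p = 0.0543). *Cxcl11*, the remaining ligand of CXCR3, did not pass the filter and had 1 read in sham, 11 on day 1 and 28 on day 7. GENCODE M21 lists it as a polymorphic pseudogene, and 41.7% of its exon bases overlap *Gm2673* on the other strand. These reads therefore do not show that a working ligand was made. Of the exon bases of *Cxcl10*, 5.91% overlap exons of *Art3* on the other strand, and which strand was counted is not given in the sources used here.

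*Cxcr3*, carried by activated T and NK cells, measured 0.157, 0.205, 0.0485 and 0.143 CPM in sham, 0.841, 0.448, 0.294 and 0.284 CPM on day 1, and 1.63, 1.04, 1.40 and 2.21 CPM on day 7. The groups did not overlap. The log2 FC was 1.68 on day 1 (SE 0.51, adjusted p = 0.0171), 3.45 on day 7 (SE 0.46, adjusted p = 2.08e-05) and 1.77 between the days (SE 0.37, adjusted p = 0.00142). The day 1 call was lost without sham heart 3 (1.41, adjusted p = 0.0514) and without day 1 heart 1 (1.26, adjusted p = 0.0563). Day 1 heart 1 was highest in *Cxcr3*, in the T cell sum of 7.88 CPM and in the NK cell sum of 2.72 CPM, and the part of these cells in the *Cxcr3* result was not tested.

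*Cxcl16* is both a membrane-bound adhesion molecule and a soluble ligand of CXCR6, and the pair moved in opposite directions after day 1. *Cxcl16* measured 9.81, 9.57, 7.71 and 8.89 CPM in sham, 13.3, 16.2, 13.8 and 14.3 CPM on day 1, and 48.0, 32.5, 32.4 and 53.7 CPM on day 7. *Cxcr6* measured 0.261, 0.164, 0.437 and 0.383 CPM in sham, 9.06, 11.4, 7.98 and 6.09 CPM on day 1, and 2.68, 3.75, 2.44 and 2.72 CPM on day 7. In both genes the 3 groups were apart, with the ligand highest on day 7 and the receptor highest on day 1. *Cxcl16* was 0.68 above sham on day 1 (SE 0.16, adjusted p = 0.00433), under the FC minimum, and 2.21 on day 7 (SE 0.16, adjusted p = 1.24e-07), with a rise of 1.53 between the days (SE 0.16, adjusted p = 4.71e-06). *Cxcr6* was 27.7-fold above sham on day 1 (log2 FC 4.79, SE 0.29, adjusted p = 5.52e-07) and 9.29-fold on day 7 (log2 FC 3.22, SE 0.30, adjusted p = 9.97e-07), and fell by 1.58 between the days (SE 0.22, adjusted p = 5.93e-05). *Cxcr6* is known from T and NK cell subsets. The T cell sums were 7.88, 2.66, 4.81 and 2.52 CPM in day 1 hearts 1 to 4, and the NK cell sums were 2.72, 1.43, 2.49 and 1.20 CPM, against up to 11.9 and 5.07 CPM on day 7. The part of these cells in the *Cxcr6* result was not tested. Of the exon bases of *Cxcl16*, 18.3% overlap *Zmynd15* on the other strand.

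*Cx3cl1* (fractalkine), a membrane-bound ligand of endothelium and neurons, and its receptor *Cx3cr1*, carried by resident macrophages and patrolling monocytes, rose on day 7. *Cx3cl1* measured 9.65, 11.5, 12.4 and 8.37 CPM in sham, 13.9, 17.0, 12.7 and 9.71 CPM on day 1, and 29.8, 24.5, 23.7 and 27.5 CPM on day 7. *Cx3cr1* measured 6.83, 3.53, 7.42 and 4.21 CPM in sham, 7.07, 10.3, 5.66 and 6.21 CPM on day 1, and 43.1, 25.9, 17.8 and 31.4 CPM on day 7. For both, sham and day 1 overlapped and day 7 was apart. The day 7 log2 FCs against sham were 1.33 for *Cx3cl1* (SE 0.16, adjusted p = 8.54e-06) and 2.44 for *Cx3cr1* (SE 0.29, adjusted p = 7.81e-06). On day 1 they were 0.34 (SE 0.16, adjusted p = 0.103) and 0.42 (SE 0.29, adjusted p = 0.269). Between the days *Cx3cr1* rose by 2.01 (SE 0.28, adjusted p = 6.27e-05), and *Cx3cl1* differed by 0.99 (SE 0.16, adjusted p = 0.000186), just under the FC minimum. *Cx3cl1* was called in 10 of the other settings, counting that with no FC minimum, which had to call it at this adjusted p. The endothelial markers summed to between 829 and 964 CPM in sham, 653 and 705 CPM on day 1, and 1045 and 1192 CPM on day 7 over 5 genes, and their part in the *Cx3cl1* result was not tested. The monocyte and macrophage markers summed to 951, 718, 660 and 892 CPM in day 7 hearts 1 to 4, the same order of hearts as for *Cx3cr1*, and their part in the *Cx3cr1* result was not tested.

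*Cxcl12*, the constitutive ligand that holds CXCR4-bearing cells in their niche, had the highest TPM of all members in sham, with 81.5 TPM ± 30.9 (SD, n = 4). Its means were 106 and 105 TPM on day 1 and day 7, whereas its mean CPM went the other way, from 339 in sham to 323 and 248. In CPM it measured 370, 498, 263 and 226 in sham, 329, 302, 363 and 297 on day 1, and 282, 212, 238 and 261 on day 7. Sham overlapped both AMI groups, day 1 lay above day 7, and no comparison was called (log2 FC -0.07, SE 0.19, adjusted p = 0.789 on day 1, and -0.45, SE 0.19, adjusted p = 0.0563 on day 7). Its signalling receptor *Cxcr4* measured 2.4, 2.46, 6.06 and 5.50 CPM in sham, 7.46, 8.89, 6.12 and 5.71 CPM on day 1, and 19.3, 18.3, 14.1 and 13.2 CPM on day 7. Day 7 was above every other heart. The log2 FC of *Cxcr4* was 1.98 on day 7 (SE 0.27, adjusted p = 2.7e-05), 1.20 between the days (SE 0.26, adjusted p = 0.00172), and 0.78 on day 1 (SE 0.28, adjusted p = 0.0344), which is under the FC minimum. *Ackr3*, the atypical receptor that scavenges CXCL12, measured 65.6, 57.6, 81.6 and 88.9 CPM in sham, 57.1, 49.8, 54.1 and 47.2 CPM on day 1, and 71.7, 53.9, 72.0 and 59.2 CPM on day 7. Its log2 FC of -0.50 on day 1 had an adjusted p of 0.00906 and was under the FC minimum (SE 0.13).

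*Ackr4*, an atypical receptor that scavenges the lymph node chemokines CCL19, CCL21 and CCL25, measured 2.87, 2.34, 5.04 and 5.26 CPM in sham, 1.84, 1.70, 1.80 and 1.45 CPM on day 1, and 11.1, 15.4, 14.7 and 13.5 CPM on day 7. The 3 groups did not overlap, with day 1 lowest and day 7 highest. It fell by 1.19 on the log2 scale on day 1 (SE 0.24, adjusted p = 0.00149), was 3.53-fold above sham on day 7 (log2 FC 1.82, SE 0.22, adjusted p = 9.05e-06), and rose 8.05-fold between the days (log2 FC 3.01, SE 0.23, adjusted p = 5.36e-07). The day 1 change was not called with library sizes alone (-0.92) or with limma on log2 TPM at a pseudocount of 1 (-0.43) or 0.1 (-0.60). The fibroblast markers summed to between 794 and 955 CPM in sham, 1031 and 1320 CPM on day 1, and 5103 and 11970 CPM on day 7 over 6 genes. Their part in the *Ackr4* changes was not tested. Of the exon bases of *Ackr4*, 8.9% overlap *Acad11* on the other strand. Of its ligands, the highest *Ccl19* value was 0.374 CPM, and *Ccl25* had group means of 2.27, 2.36 and 3.13 CPM with no call.

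**Figure D4:**
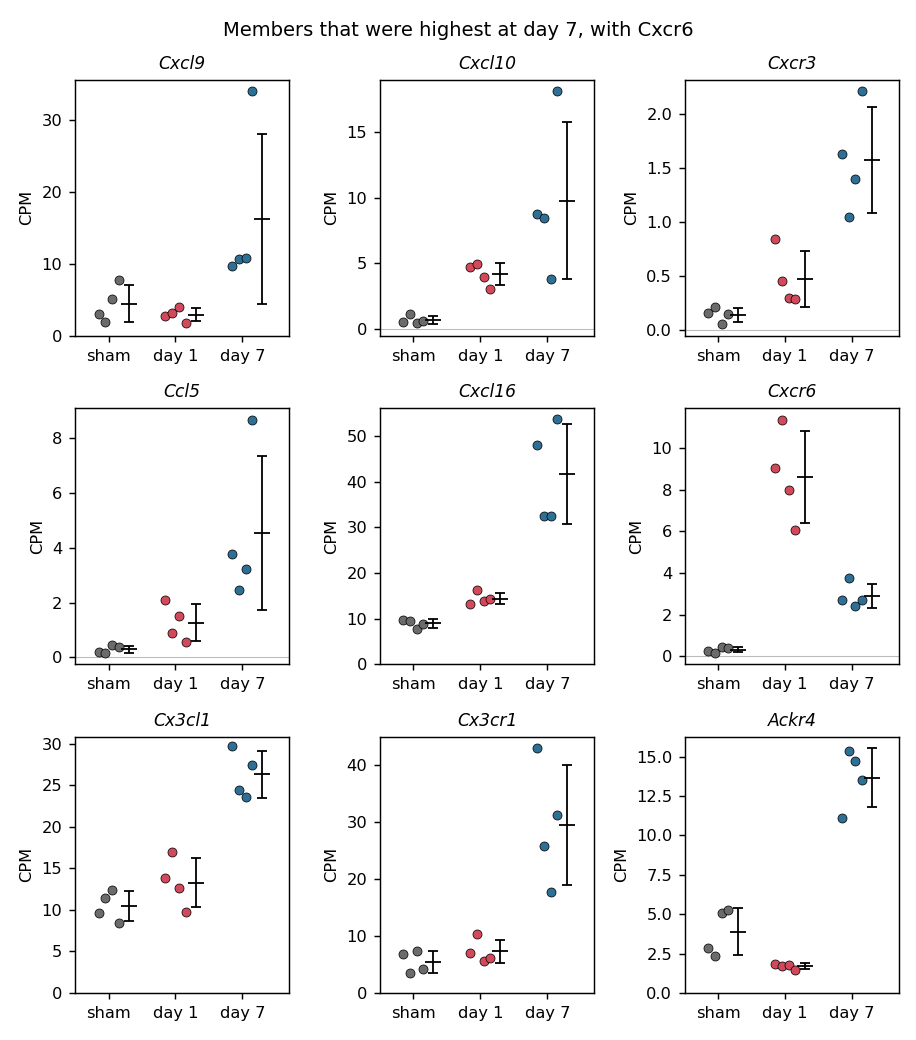
Normalized expression in CPM (vertical axes, linear) of *Cxcl9*, *Cxcl10*, *Cxcr3*, *Ccl5*, *Cxcl16*, *Cxcr6*, *Cx3cl1*, *Cx3cr1* and *Ackr4* in the 3 groups (horizontal axes), with points for hearts and bars for the mean and SD of 4 hearts. Each gene but *Cxcr6* has its highest mean on day 7, *Cxcr6* peaks on day 1, and *Ackr4* is lowest on day 1.

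*Ccr7*, which guides dendritic cells and T cells to lymph nodes, measured 0, 0.0821, 0.388 and 0.717 CPM in sham, 0.306, 0.537, 0.752 and 0.441 CPM on day 1, and 1.36, 1.82, 1.51 and 1.16 CPM on day 7. Day 7 was apart from both other groups. The day 7 log2 FC was 2.28 against sham (SE 0.57, adjusted p = 0.00301), or 3.18 without sham heart 4. Against day 1 it was 2.83-fold higher (log2 SE 0.50, adjusted p = 0.0242), and that call was lost without day 1 heart 1 (1.33, adjusted p = 0.0699), day 1 heart 4 (1.43, adjusted p = 0.0596) or day 7 heart 2 (1.38, adjusted p = 0.0652). *Ccl17* and *Ccl22*, ligands of CCR4 made by dendritic cells and macrophages, were low but called on both days. *Ccl22* had group means of 0.0873, 0.705 and 0.681 CPM (log2 FC 3.00, SE 0.58, adjusted p = 0.00109 on day 1, and 2.97, SE 0.58, adjusted p = 0.000517 on day 7). *Ccl17* had 2 reads in sham, 40 on day 1 and 39 on day 7, with ratios to sham of 13.9 (exact 95% counting interval 3.62 to 119) and 14.4 (3.74 to 124), adjusted p-values of 0.00559 and 0.0031, and fitted log2 FCs of 3.58 and 3.59 that became 6.22 on both days without sham heart 1. Without sham heart 1 no *Ccl17* read was left in sham, so 6.22 does not measure the size of the change. *Ccr4* did not pass the filter. The dendritic cell markers, of which *Xcr1* is a member here, summed to between 23.8 and 26.6 CPM in sham, 26.2 and 30.5 CPM on day 1, and 35.8 and 44.1 CPM on day 7 over 5 genes.

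Lower values were found for *Ccl11*, *Cxcl14* and *Ccl24*. *Ccl11* (eotaxin), an eosinophil attractant of fibroblasts and smooth muscle, measured 1.51, 1.40, 1.55 and 2.06 CPM in sham, 1.80, 1.70, 1.15 and 1.80 CPM on day 1, and 0.277, 0.309, 0.553 and 0.408 CPM on day 7. It was unlike its neighbours *Ccl2* and *Ccl7*, since sham and day 1 overlapped and every day 7 heart was lower. It fell by 2.07 on the log2 scale against sham (SE 0.28, adjusted p = 2.38e-05) and fell by 2.05 from day 1 (SE 0.28, adjusted p = 4.9e-05). *Cxcl14*, a homeostatic chemokine of epithelium and stroma, measured 16.2, 17.1, 17.4 and 16.6 CPM in sham, 10.3, 14.1, 13.9 and 21.0 CPM on day 1, and 7.24, 3.13, 5.72 and 6.67 CPM on day 7. The sham hearts were close together, the day 1 hearts were spread on both sides of them, and the day 7 hearts were below all others. It fell by 1.56 against sham (SE 0.23, adjusted p = 5.13e-05) and by 1.38 from day 1 (SE 0.23, adjusted p = 0.00026).

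*Ccl24* (eotaxin-2), a product of macrophages, measured 0.470, 0.945, 1.70 and 1.58 CPM in sham, 5.43, 1.91, 1.41 and 1.83 CPM on day 1, and 0.431, 0.889, 0.443 and 0.340 CPM on day 7. Day 1 and day 7 were apart, and sham overlapped both. It was called only from day 1 to day 7, where it fell by 2.32 on the log2 scale (SE 0.49, adjusted p = 0.00155), or by 1.72 without day 1 heart 1. The day 7 difference from sham, -1.17, was called in 7 other fits, DESeq2 and the fit of only these groups among them, and the day 1 difference in 8. Their common receptor *Ccr3* did not pass the filter, was at 0 in the 4 sham libraries and reached at most 0.119 CPM on day 1. The 5 eosinophil and mast cell markers found summed to between 3.81 and 11.0 CPM in sham, 6.56 and 20.1 CPM on day 1, and 20.7 and 26.3 CPM on day 7. Of the 3 tested, 1 was called higher on day 7 and none on day 1. *Prg2* and *Epx* had no count in sham, and *Epx* had none in any library. The part of these cells in the *Ccl24* result was not tested.

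Of the 10 members called in no comparison, *Cxcl12* and *Ackr3* were the most abundant. *Ccl27a* had group means of 4.58, 3.67 and 2.98 CPM and 33.3% of the 75-base stretches of its exons occur in other genes, so its reads could be split. *Ackr2*, the scavenger of inflammatory CC chemokines, reached a mean of 5.19 CPM on day 7 and measured 6.05, 5.67, 1.65 and 1.96 CPM in sham, where hearts 1 and 2 were above hearts 3 and 4. Its log2 change from day 1 to day 7 was 0.89 (SE 0.36, adjusted p = 0.0582). *Ackr1*, a chemokine-presenting receptor of venular endothelium and red cells, had group means of 0.316, 0.800 and 0.687 CPM, and 25.7% of its exon bases are shared on the same strand with *Cadm3*. The other members with no call were *Ccl25*, *Ccr9*, *Ccr10*, *Cxcr5* and *Xcr1*, each with group means of at most 3.13 CPM. Of the 15 members with a count that did not pass the filter, the highest value was 1.19 CPM, for the B cell attractant *Cxcl13* in day 7 heart 4.

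Levels of different genes can be compared only per transcript length, in TPM. In sham, *Cxcl12* was followed by *Ackr3* at 28.9 TPM, *Ccl6* at 18.3 TPM and *Ccl27a* at 17.3 TPM. On day 1, *Ccl6* at 114 TPM and *Cxcl12* at 106 TPM were followed by *Ccl7* at 81.5, *Ccl2* at 79.4 and *Ccl12* at 37.9 TPM. On day 7, *Cxcl12* at 105 TPM was followed by *Ccl8* at 56.0, *Cxcl16* at 41.9, *Ackr3* at 36.5 and *Ccl12* at 33.6 TPM. The SD over 4 hearts was 37.0 TPM for *Ccl6* on day 1 and 44.3 TPM for *Ccl8* on day 7, so neighbours in these orders, such as *Ccl6* and *Cxcl12* on day 1 or *Ccl7* and *Ccl2*, do not differ beyond their spread. Among the signalling receptors, *Cxcr4* was highest on day 7 at 20.6 TPM, ahead of *Ccr2* at 14.8 and *Cx3cr1* at 14.0 TPM, values that overlap within their SDs.

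**Figure D5:**
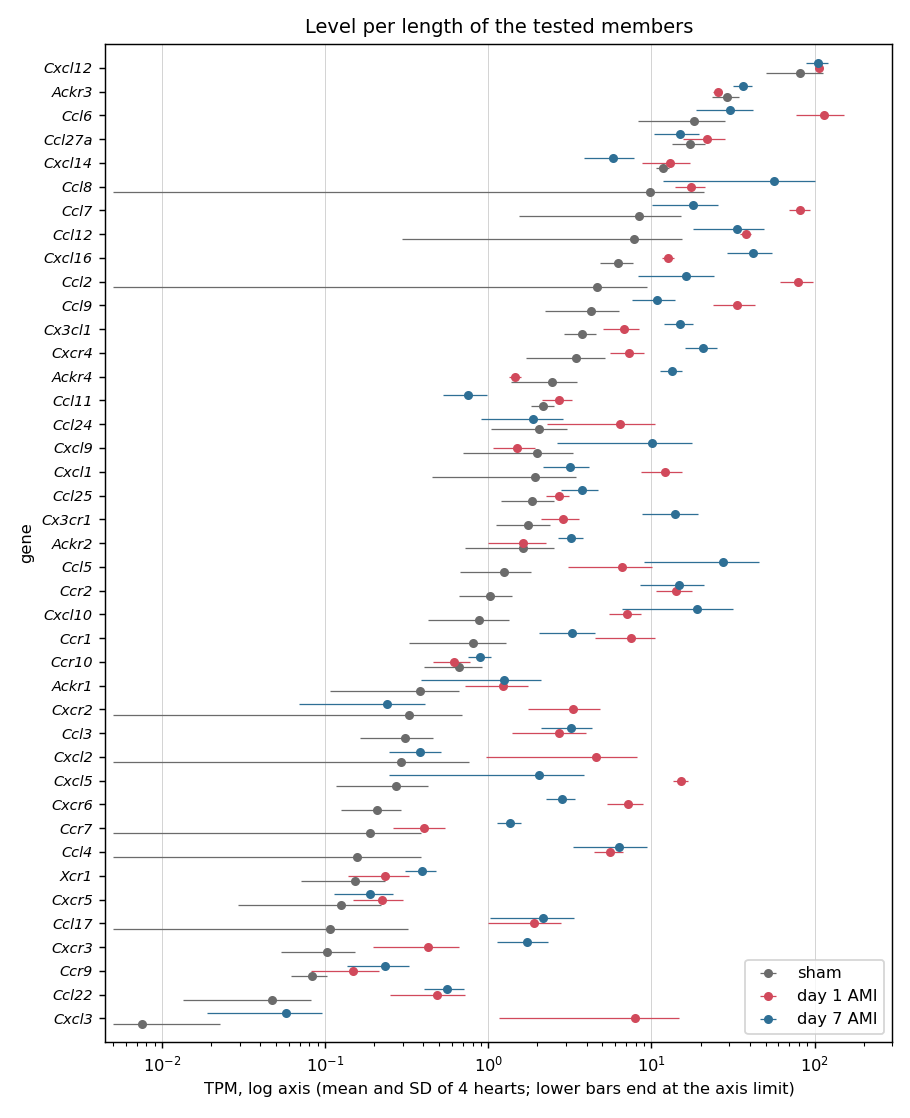
TPM (horizontal axis, log scale) of 41 tested members (vertical axis, in the order of their sham mean), with points for the mean and bars for the SD of 4 hearts, coloured by group. *Cxcl12* and *Ackr3* move little on this axis while *Cxcl3*, *Cxcl5*, *Cxcr6* and *Ccl4* move furthest to the right of their sham values.

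Ligands were next set beside their receptors. Of 39 known ligand and receptor pairs, written down with earlier results known, 23 had both partners tested, over 19 ligands and 11 receptors. On day 1 both partners were called higher in 16 pairs, the receptor only in 2 (*Cxcr3* with *Cxcl9* and *Cxcr6* with *Cxcl16*), and neither in 5. On day 7 both were higher in 11 pairs, the receptor only in 5, the ligand only in 1 (*Cxcl5*, whose receptor *Cxcr2* was not called), and neither in 6. Between the days, both were lower in 7 pairs, which hold the 4 CXCR2 ligands with *Cxcr2* and *Ccl6*, *Ccl7* and *Ccl9* with *Ccr1*. Both were higher in 2 pairs, *Cxcl9* and *Cxcl10* with *Cxcr3*. The calls ran opposite in 2 pairs, *Cxcl16* with *Cxcr6* and *Ccl5* with *Ccr1*, where the ligand was higher and the receptor lower on day 7. Many pairs share a ligand or receptor, so the pairs are not independent counts.

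Next, 43 genes of chemokine signalling and of the migration it drives were examined. Not all act downstream of the receptors, since the list also held the ligands *Pf4*, *Ppbp* and *Mif*, and *Ccrl2* and *Dpp4*. On day 1, 20 of the 43 were called higher and 0 lower by edgeR, against 7.79% and 2.98% of all genes, and with no FC minimum 31 were higher and 3 lower. On day 7, 21 were higher and 1 was lower, against 15.3% and 5.88% of all genes, and between the days 1 was higher and 2 were lower, against 8.55% and 2.69%. Their median log2 FC was 0.58 on day 1 and 0.95 on day 7 against sham. The largest changes were these. *Fgr*, a Src-family kinase of myeloid cells, had group means of 0.852, 8.98 and 4.98 CPM (log2 FC 3.42, adjusted p = 0.00019 on day 1), and *Itgam*, the integrin chain CD11b, had 7.90, 48.1 and 22.9 CPM (log2 FC 2.60, adjusted p = 6.1e-05 on day 1), and fell by 1.07 from day 1 to day 7 (adjusted p = 0.00925). *Pik3r5*, the regulatory subunit of the Gβγ-activated PI3Kγ, rose by 2.21 on day 1 (adjusted p = 9.13e-06) and by 2.52 on day 7 (adjusted p = 2.91e-07), and *Rgs16*, which ends Gi signals, by 2.36 and 2.55 (adjusted p = 0.000245 and 3.88e-05). *Elmo1*, a partner of DOCK2 in activating Rac, was the gene called higher between the days (log2 FC 1.19, adjusted p = 3.43e-06), and *Rgs2* was the gene called lower on day 7 (-1.06, adjusted p = 2.13e-05). *Rac1*, *Gnai2* and *Mif*, which most cells express, were called in no comparison, with day 1 log2 FCs of 0.17, 0.40 and 0.38. *Gnai2* missed only the FC minimum, with adjusted p = 0.000787 on day 1 and 6.47e-06 on day 7 (log2 FC 0.63). *Gnb1* and *Cdc42* also rose under that minimum on day 1 (0.58, adjusted p = 0.000252, and 0.46, adjusted p = 0.00207). For *Rac1* and *Mif* the day 1 adjusted p was 0.0882 and 0.0819. *Pf4*, the platelet chemokine CXCL4 whose symbol falls outside the rule, had group means of 12.6, 29.4 and 13.7 CPM and was called higher on day 1 (log2 FC 1.22, adjusted p = 0.000113) and lower again by day 7 (-1.10, adjusted p = 0.000123). Of the 4 platelet markers, *Pf4* was the 1 called higher on day 1, and 2 others were called lower, so its rise was not shared by the list. *Itgam* stands on 2 identifiers, and the one with more reads was used.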

How the data were processed

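Whole-heart RNA of 12 mice, 4 per group, was sequenced as paired-end reads, and groups and replicate numbers came from the labels. The authors trimmed the reads with Cutadapt, aligned them with STAR 2.4.0j to Ensembl GRCm38 release 92, and ran RSEM for gene levels. Raw counts per gene, without normalization, and TPM of the same genes, rounded to 2 decimals, were deposited by the authors. The counter, the strand counted and the handling of reads that fit several genes are not given in the sources used here.

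Counts were scaled by TMM, filtered with filterByExpr, and tested with the quasi-likelihood test of edgeR 4.0.16 (R 4.3.3) in 1 fit of the 3 groups over 15306 genes. Members past the threshold (FC of 2 or greater, FDR below 0.05) with a group mean of at least 1 CPM are given heart by heart, and others by group or count, except for 1 member that is counted but not reported here. The members, pairs, lists and tests were chosen with earlier results of these data known. Hearts that share a replicate number are different mice, so p-values measure the spread between mice. Alternatives used DESeq2 1.42.0, limma 3.58.1 on log2 TPM, other scalings and filters, and left out each heart. The code was tested on simulated data. Sequences came from RefSeq (GRCm38.p6), positions from GENCODE M21, and figures were drawn with matplotlib 3.10.9.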

Additional observations from a re-analysis of the deposited data

Results flagged for a closer look

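In 6 of 126 groups of 4 hearts over the tested members, the lowest or highest heart stood further from its nearest neighbour than Dixon's 95% limit allows. By chance about 1 in 20 groups would be marked in this way. On day 7, *Cxcl9* was 33.9 CPM in heart 4 and 9.71 to 10.7 CPM in the other 3 hearts. On day 1, *Cxcl1* was 3.88 CPM in heart 4 and 7.36 to 8.03 CPM in the others, and *Ccl11* was 1.15 CPM in heart 3 and 1.70 to 1.80 CPM in the others. In sham, *Cxcl5* was 0.678 CPM in heart 1 and 0.205 to 0.243 CPM in the others. Also in sham heart 1, *Cxcl3* and *Ccl17* were each 0.104 CPM, which is 2 reads, and 0 in the other 3 sham hearts. These 2 last values lie under the floor of a library.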

How the results depend on the processing

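The counts of members called higher, and those of members lower from day 1 to day 7, stayed within 1.5 times under every alternative, the fit without sham hearts 1 and 2 included. That fit, chosen after seeing the data, gave 22 members higher and 1 lower on day 1, 28 and 3 on day 7, and 10 and 14 between the days. No called member changed sign. Members lower on day 1 (1) became 0 with library sizes alone and with limma (log2(TPM + 1), with and without the filter, and log2(TPM + 0.1)), and 2 with no FC minimum. Members lower on day 7 (2) became 0 with limma on log2(TPM + 1), with and without the filter. In the signalling list, no FC minimum gave 31 higher and 3 lower on day 1, 32 and 2 on day 7, and 10 and 5 between the days. Its count lower on day 7 (1) was 0 with library sizes alone, the 3 limma fits and the fit without sham hearts 1 and 2, 2 with no filter, and 0 to 2 with a heart left out. Its count higher between the days (1) was 3 with library sizes alone and limma on log2(TPM + 1), with and without the filter, 4 with log2(TPM + 0.1), and 1 to 2 with a heart left out, and its count lower (2) was 0 in those 4 fits and 1 to 3 with a heart left out. The cause of these shifts was not tested.

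Library sizes alone moved the median log2 FC of all genes by 0.27, 0.40 and 0.13 in the 3 comparisons, and the calls over all genes from 1192 higher and 456 lower to 1764 and 217 on day 1, from 2346 and 900 to 3633 and 318 on day 7, and from 1308 and 411 to 1626 and 293 between the days. Limma on log2(TPM + 1) moved that median by 0.24, 0.41 and 0.16. There the calls of *Ccl22*, *Ccl11*, *Cxcl14*, *Ccr7*, *Cxcr3*, *Ccr1* and *Ackr4* were lost in at least 1 comparison, and the cause was not tested. *Ccl24* was also called higher on day 1 in 8 alternatives and lower on day 7 in 7, DESeq2 in both. *Cx3cl1* was also called higher from day 1 to day 7 in 10, the replicate block, library sizes alone and the 3 limma fits among them. Those 10 include no FC minimum, which had to call it. With a replicate block, the members were 21 higher and 1 lower on day 1, 22 and 2 on day 7, and 10 and 14 between the days. The deviations of same-number hearts from their group means correlated between -0.24 and 0.23, and for number 3 between 0.12 and 0.15. The study's methods name no pairing of hearts, and these correlations alone do not settle whether the numbers pair them. Depth limits the 15 untested members with few reads.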
